A study of Mus musculus with 2 samples.

Results

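Delta cells are the somatostatin-producing endocrine cells of the pancreatic islet. Here they were the barcodes whose own RNA was rich in somatostatin (Sst): at least 500 genes, at least 1000 UMIs (unique molecular identifiers, each standing for a captured RNA molecule) and no more than 20% mitochondrial RNA, with Sst at 1.5% of UMIs or more, insulin RNA (Ins1 plus Ins2) under 15%, glucagon RNA (Gcg) under 2%, and more Sst than pancreatic polypeptide (Ppy) UMIs. By this rule 844 of the 18006 barcodes past the filter were delta cells, 366 of 6415 in the CDS library and 478 of 11591 in the saline library. Mice labelled DIO had been treated over 2 weeks, with CDS at 10 mg/kg or with saline, before their islets were freed with collagenase and picked by hand; the labels do not say what CDS is, while the series title names the alpha2A-adrenergic receptor as the target of an antagonist that works outside the brain. Both groups carry the DIO label, no genotype, strain, age or number of animals is stated, and each group is 1 droplet library. Differences between CDS and saline therefore have no replicate check and no test, and a treatment difference cannot be told apart from a difference between preparations. The 95% intervals below cover counting error only. The Sst, Ins1, Ins2, Gcg and Ppy values chose the cells, so the levels of all genes across cell classes, measured in those same cells, are given as a description.

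Somatostatin is a short peptide hormone that acts on neighbouring islet cells and restrains the release of both insulin and glucagon. Delta cells respond to glucose, to ghrelin and to urocortin 3 released by beta cells, and the homeobox factor Hhex maintains their identity in the mouse. The alpha2A-adrenergic receptor (Adra2a) couples to inhibitory G proteins, lowers cyclic AMP and in beta cells reduces insulin secretion.

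The CDS library held 7268 barcodes and 141191447 UMIs, and the saline library 12453 barcodes and 124343325 UMIs. The submitters labelled both as islet b cells, but each held beta, alpha, delta and PP cells (pancreatic polypeptide cells) as well as immune, endothelial and acinar cells. The libraries shared 25 barcodes, none of them a delta cell in either. Delta cells had a median of 14853 UMIs and 4465.5 genes in the CDS library, against 10042.5 UMIs and 3732.5 genes in the saline library, so depth differed along with treatment. Immune cells were 212 of the CDS barcodes and 2566 of the saline barcodes past the filter, which moves any share taken over all barcodes.

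Delta cells made up nearly the same share of the hormone cells in both libraries. They were 6.93% of the delta, beta, alpha and PP cells together in the CDS library (exact interval 6.26 to 7.65%) and 6.89% in the saline library (6.30 to 7.51%), and these intervals overlap almost wholly. Of all barcodes past the filter they were 5.71% (5.15 to 6.30%) in the CDS library and 4.12% (3.77 to 4.50%) in the saline library, where the larger number of immune cells lies in the denominator. Of 447 CDS and 534 saline barcodes with Sst at 1.5% or more, 29 and 30 held insulin RNA at 15% or more, 9 and 7 held glucagon RNA at 2% or more, and 45 and 20 held at least as many Ppy as Sst UMIs. These losses overlap, and the last of them, cells with both hormones in which Ppy prevailed, was larger in the CDS library.

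Sst RNA itself spanned a wide range among delta cells and was similar between libraries. Its share ran between 1.51% and 26.8% of a cell's UMIs in the CDS library (median 5.47%) and between 1.55% and 22.1% in the saline library (median 6.10%). Insulin RNA was at a median of 1.43% in CDS and 1.49% in saline delta cells. Endothelial cells, which make no insulin, had 1.77% in the CDS and 2.13% in the saline library, so a typical delta cell held no more insulin RNA than they did. Gcg was at a median of 0.0402% in CDS and 0.0305% in saline delta cells, and endothelial cells had 0.0473% and 0.0397%. Barcodes just inside the Sst limit, at 1.5 to 2% of UMIs, numbered 14 in the CDS and 15 in the saline library, and 57.1% and 40% of them held a Hhex UMI. Just outside it, at 1 to 1.5%, there were 20 and 14 barcodes, of which 50% and 42.9% held a Hhex UMI. On either side of the limit few barcodes lay near it, too few to tell these Hhex shares apart. Depth differed too, with a median of 13461 UMIs inside and 7988 outside the limit in the CDS library. In the saline library it was 8795 and 6359 UMIs.

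The promoter of Sst is shown because Sst defines these cells and because its cyclic AMP response element, the binding site of the factor CREB, links the hormone to the second messenger that alpha2-adrenergic receptors lower. Pcsk1, which encodes the prohormone convertase PC1/3, is shown beside it since its promoter held the same element while its RNA was lower in the delta cells with more Sst, short of the limit in saline cells once cells with other markers were left out. Both windows are RefSeq sequence of build GRCm38.p6, run 250 bases before to 50 after the annotated start, and carry the palindrome TGACGTCA in capitals; being palindromic, it reads the same on both strands. Sst lies on the minus strand, with this window at chr16:23890795-23891094, and Pcsk1 on the plus strand, with its window at chr13:75089607-75089906.
Sst: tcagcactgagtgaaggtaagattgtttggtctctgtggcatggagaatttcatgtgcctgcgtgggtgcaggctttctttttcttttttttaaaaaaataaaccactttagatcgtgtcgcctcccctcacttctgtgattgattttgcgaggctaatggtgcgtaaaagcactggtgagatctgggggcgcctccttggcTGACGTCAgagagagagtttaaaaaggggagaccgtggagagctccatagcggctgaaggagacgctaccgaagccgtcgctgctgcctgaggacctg
Pcsk1: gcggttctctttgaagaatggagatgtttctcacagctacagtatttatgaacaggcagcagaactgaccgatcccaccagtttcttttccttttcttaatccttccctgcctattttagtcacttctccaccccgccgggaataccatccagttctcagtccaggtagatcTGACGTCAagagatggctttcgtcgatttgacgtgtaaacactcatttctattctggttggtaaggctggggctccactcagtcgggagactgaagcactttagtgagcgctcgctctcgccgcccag
The element stood at bases -48 to -41 from the Sst start and at -78 to -71 from the Pcsk1 start. Of 27025 genes with a window of this length, 549 (2.03%) held these letters, and of the 20 genes highest in delta cells relative to other hormone cells, 12 had a window and 0 held them. Such a match describes letters only and says nothing of binding in these cells.

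The genes that set delta cells apart from other hormone cells fell into recognisable roles. Levels here are CPM taken over all UMIs other than those of the 5 hormone genes (non-hormone CPM), which keeps the large hormone shares from pressing down every other gene. At 50 non-hormone CPM or more in delta cells of both libraries, 63 of 3583 genes (1.76%) were at least 2 times as high in delta cells as in the highest of beta, alpha and PP cells, in each library. Among the 20 with the highest ratio were Mest, Sntg2, Slc16a7, Spock3, Ly6h, Ptprz1, Fam81a, 5330439M10Rik, Baiap3, Rbp4, Cd24a, Khdrbs2, Hhex, Ctsh, Gm1604a, Kcnd2, 1700016P03Rik, Adgrf5 and Cadm1. They include a transcription factor, a secreted retinol carrier, a potassium channel, a lactate transporter and several adhesion and surface proteins. Ctsh and Adgrf5 were higher still outside the hormone cells: Ctsh had 655 CPM in CDS and 143 CPM in saline immune cells, and Adgrf5 had 519 and 532 CPM in endothelial cells.

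**Figure D1:**
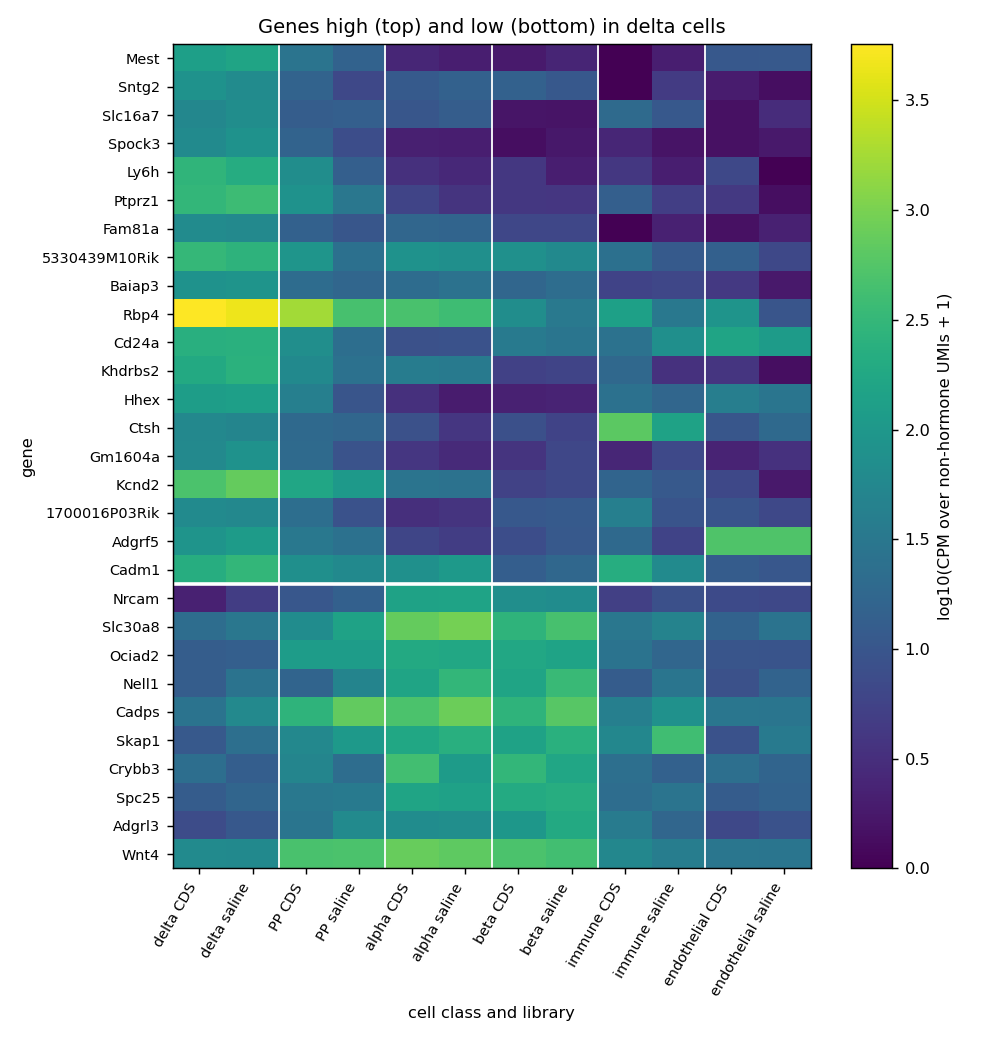
Colour gives log10 of non-hormone CPM plus 1 for each gene (rows) in each cell class and library (columns, CDS left of saline in each pair). The genes above the white line are bright in both delta columns, in CDS PP cells more than in saline PP cells, and mostly dark in alpha and beta cells; the 10 below it are dark in delta cells and bright in alpha and beta cells.

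Apart from Sst, which chose the cells, 4 of the 5 genes that mark delta cells were higher in them than in PP, alpha and beta cells, and Lepr was not. Hhex (chr19:37434810-37440731, build mm10) had 125 CPM in CDS and 129 CPM in saline delta cells, against 1.19 and 1.36 CPM in beta cells and 2.35 and 0.922 CPM in alpha cells. Rbp4, the plasma carrier of retinol (chr19:38116629-38125281), had 5719 and 4615 CPM in delta cells, against 69.1 and 32.5 CPM in beta cells. PP cells held 1701 and 464 CPM of Rbp4, and alpha cells 470 and 388 CPM. Ptprz1, a receptor-type tyrosine phosphatase (chr6:22875502-23052916), had 311 and 372 CPM, against 3.06 and 2.99 CPM in beta cells. In both libraries all 3 were thus far higher in delta than in beta cells. Ghsr, the ghrelin receptor (chr3:27371351-27378010), was at a low level, with 27.1 and 30.9 CPM in delta cells, against 6.36 and 2.95 CPM in PP cells and 0.128 and 0.230 CPM in beta cells. Lepr, the leptin receptor, had 1 UMI in 366 CDS delta cells and 2 UMIs, both in the same cell, in 478 saline delta cells, while endothelial cells held 8.34 CPM in the CDS and 24.7 CPM in the saline library. Beside the Sst rule, the label of the cells thus rests on Hhex, Rbp4, Ghsr and Ptprz1, and Lepr RNA was not detectable above a few molecules at this depth.

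With each cell thinned to 5000 UMIs, Hhex, Ghsr and Rbp4 were found in almost the same share of delta cells in both libraries. A Hhex UMI was seen in 40.5% of 328 CDS and 40.5% of 449 saline delta cells, and Ghsr in 10.1% and 11.6%. For background, immune cells held a Ghsr UMI in 0% of 152 CDS and 0.275% of 364 saline cells. They held a Hhex UMI in 9.21% of CDS and 4.12% of saline cells, Rbp4 in 15.1% and 4.67%, and Ptprz1 in 1.32% and 1.65%. Hhex was seen in only 0.267% of CDS and 0.400% of saline beta cells and in 0.338% and 0.251% of alpha cells. The immune cell shares of Hhex lay above these, so they are not a plain background for this gene. Whether immune cells make Hhex themselves was not tested. It was also seen in 13.5% and 11.8% of endothelial cells, a cell type that uses this factor itself. Rbp4 was seen in nearly all delta cells (99.7% and 99.8%), and in 9.80% of CDS and 5.73% of saline beta cells. It was also seen in 71.9% of CDS and 68.4% of saline alpha cells, and in 66.5% and 54.1% of PP cells. Ptprz1 was seen in 64.9% (59.5 to 70.1%) of CDS and 71.7% (67.3 to 75.8%) of saline delta cells, against 0.800% and 0.267% of beta cells. Without thinning the Hhex shares were 66.4% in the deeper CDS and 57.5% in the saline delta cells.

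PP cells were the class closest to delta cells, and the distance depended on the library. Mest, an imprinted gene, had 130 CPM in CDS and 156 CPM in saline delta cells, against 26.9 and 14.02 CPM in PP cells, which gives ratios of 4.82 (3.77 to 6.24) in the CDS and 11.2 (8.05 to 15.9) in the saline library. Hhex was 3.06 times (2.49 to 3.78) as high in delta as in PP cells of the CDS library and 14.6 times (9.69 to 22.9) in the saline library. The smaller ratios in the CDS library went with Sst RNA in its PP cells: 33.3% of 174 CDS PP cells and 10.3% of 253 saline PP cells held Sst at 1% of UMIs or more. Taking only the 105 CDS and 221 saline PP cells with Sst under 0.5% of UMIs, a choice made after seeing the data, PP cells held 3.06 CPM of Hhex in the CDS and 1.73 CPM in the saline library, 0.613 and 0.864 CPM of Mest, 1.23 and 7.35 CPM of Ptprz1, and 343 and 217 CPM of Rbp4. The delta cell level over the highest of these PP cells, alpha cells and beta cells was then 40.6 in the CDS and 74.6 in the saline library for Hhex and 82.8 and 110 for Mest, of which the Mest values and those of Rbp4 (12.2 and 11.9) are against alpha or beta cells. Under that choice 95 of the 3583 genes (2.65%) were at 2 or more in both libraries, the same 63 genes plus 32 more. PP cells with little Sst held little RNA of Hhex, Mest and Ptprz1 in either library, and more of Rbp4. Low Sst chose these PP cells and high Sst chose the delta cells. The low levels therefore describe this subset and are no test of PP cells at large.

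Several genes were low in delta cells that both beta and alpha cells expressed. Of 3065 genes at 50 CPM or more in beta and alpha cells of both libraries, 59 (1.92%) were at 0.5 times or less of the lower of those classes, in each library. The 10 with the lowest ratio were Nrcam, Slc30a8, Ociad2, Nell1, Cadps, Skap1, Crybb3, Spc25, Adgrl3 and Wnt4. Slc30a8, the zinc transporter of hormone granules, had 21.4 CPM in CDS and 30.3 CPM in saline delta cells, against 279 and 454 CPM in beta cells and 732 and 930 CPM in alpha cells. Cadps, which primes dense-core granules for release, had 26.3 and 57.0 CPM in delta cells, against 281 and 595 CPM in beta cells. Endothelial cells, which have no such granules, held 14.4 and 25.9 CPM of Slc30a8 and 28.7 and 27.5 CPM of Cadps; how much of the delta cell value is free RNA was not tested. Nrcam, an adhesion molecule, was lowest of all, with 6 UMIs in CDS and 17 UMIs in saline delta cells, and 71.3 and 66.4 CPM in beta cells.

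Among islet transcription factors, 2 of 23 genes at 50 CPM or more were at 2 times or more over every other hormone class in both libraries, Hhex and Neurog3, where 1.76% of all genes were. Neurog3, the factor that starts endocrine differentiation in the embryo, had 67.8 CPM in CDS and 59.0 CPM in saline delta cells, against 2.12 and 1.77 CPM in beta cells. Pdx1, known from beta and delta cells, had 84.6 and 95.4 CPM in delta cells, close to the 99.8 and 97.1 CPM of beta cells, and 8.61 and 8.30 CPM in alpha cells. Isl1, a factor of all endocrine islet cells, had 287 and 293 CPM in delta and 161 and 134 CPM in beta cells. Mafa, a factor of mature beta cells, had 3.49 and 7.95 CPM in delta and 217 and 269 CPM in beta cells.

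Most receptors lay below the level asked for in this comparison, as did most genes. Of 66 receptors for hormones and paracrine signals, 11 reached 50 CPM in delta cells of both libraries, where 3583 of all 32285 genes did. Of these 11, 0 was at 2 times or more over every other hormone class. Since 1.76% of all genes passed, 0 of 11 does not set receptors apart. Below that level, among receptors picked for their known roles with their values in view, stood Ghsr, given above, and Crhr2, the receptor of urocortin 3, with 13.6 CPM in CDS and 15.5 CPM in saline delta cells, against 0.289 and 0.425 CPM in beta cells. Sstr1, a somatostatin receptor, had 12.9 and 7.51 CPM in delta cells and 0.128 and 0.0177 CPM in beta cells. Beta cells held more of other receptors: Glp1r, the receptor of glucagon-like peptide 1, had 51.6 and 59.4 CPM in delta cells, against 240 and 308 CPM in beta cells. Chrm3, a muscarinic acetylcholine receptor, had 88.3 and 141 CPM in delta cells, against 262 and 524 CPM in beta cells. Of these 5 receptors, Ghsr, Crhr2 and Sstr1 thus had more RNA in delta cells, and Glp1r and Chrm3 in beta cells.

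The lists of Gi signalling, cyclic AMP signalling, membrane excitability and exocytosis each had a member that was delta-rich by the same limit. In Gi signalling it was 1 of 17 genes, Rgs9, which shortens G protein signals and had 318 CPM in CDS and 400 CPM in saline delta cells, against 69.5 and 90.6 CPM in beta cells. In cyclic AMP signalling it was 1 of 20, the adenylyl cyclase Adcy2, with 68.0 and 114 CPM in delta cells, against 0.706 and 1.06 CPM in beta cells. Among ion channels it was 1 of 19, the A-type potassium channel Kcnd2, with 494 and 737 CPM in delta cells, against 4.56 and 5.50 CPM in beta cells. PP cells held 167 and 104 CPM of Kcnd2, so its ratios to the highest other hormone class were 2.95 and 7.11. In exocytosis it was 1 of 26, the calcium sensor Syt1, with 290 and 373 CPM in delta cells, against 4.14 and 4.58 CPM in beta cells. Each of these shares is above the 1.76% of all genes, but each rests on a single gene. Of 10 delta cell genes that reached 50 CPM, 5 passed (Hhex, Rbp4, Ptprz1, Shisal2b and Spock3), and of 15 neuronal-type adhesion genes, 4 passed (Ptprz1, Cntn3, Ncam2 and Cadm1). Of 64 nuclear genes of oxidative phosphorylation, 0 passed, and of 18 genes of prohormone processing and granule content, 0 passed.

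Adra2a, the receptor named in the series title, was at a low level in delta cells. It had 10.7 CPM (52 UMIs) in CDS and 6.85 CPM (31 UMIs) in saline delta cells, against 49.8 and 49.0 CPM in beta cells. After thinning, an Adra2a UMI was seen in 4.88% of CDS and 4.01% of saline delta cells, in 14% and 15.3% of beta cells, and in 0.658% and 1.10% of immune cells. On the TMM scale (an edgeR factor that aligns the bulk of genes), delta cells had 10.1 CPM in the CDS and 5.88 CPM in the saline library, a ratio of 1.72 (1.08 to 2.78). The ratio without the CDS cell of most Adra2a UMIs was 1.59, and the thinned shares differ by less than their intervals, so this count does not settle whether the level differed.

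A large part of delta cells also held Ppy RNA. At 1% of UMIs or more it was found in 200 of 366 CDS delta cells (54.6%, 49.4 to 59.8%) and in 207 of 478 saline delta cells (43.3%, 38.8 to 47.9%). Endothelial cells, which do not make Ppy, gave 0 of 265 in the CDS and 0 of 400 in the saline library (allowing up to 1.38% and 0.918%), and their median Ppy share was 0.0355% and 0.0402%. Beta cells with as much Ppy were 0.530% and 0.169%, and alpha cells 25.5% and 19.7%. Doublet calls (barcodes scored as holding more than a single cell) were 6 of the 200 CDS and 7 of the 207 saline delta cells with Ppy. The rule caps Ppy at the cell's Sst, so the 45 CDS and 20 saline barcodes with Sst at 1.5% or more and at least as much Ppy are not counted in these shares.

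**Figure D2:**
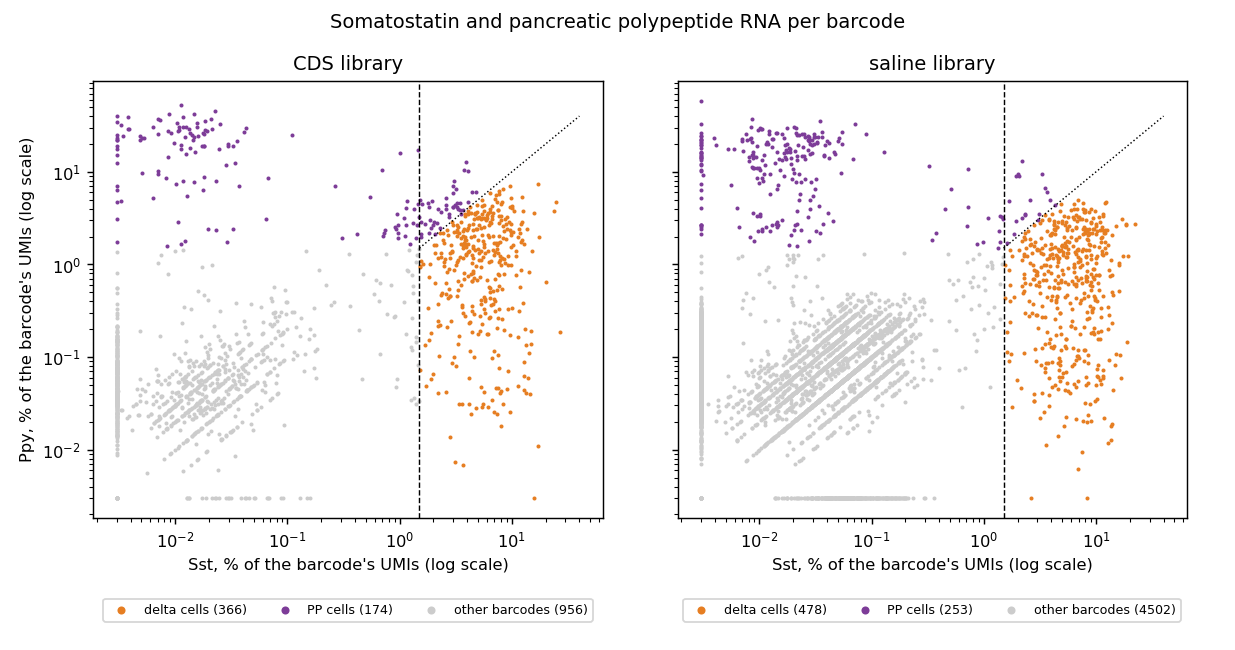
Each point is a barcode with insulin RNA under 15% and glucagon RNA under 2% of UMIs, placed by its Sst and Ppy shares (both axes logarithmic, shares under 0.003% drawn at the edge), with delta cells in orange, PP cells in purple and the rest in grey. Delta cells lie right of the dashed line at 1.5% Sst and below the dotted line of equal shares; 54.6% of those in the CDS and 43.3% in the saline library have Ppy at 1% or more, and CDS PP cells spread along the dotted line more than saline PP cells.

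Few genes differed past the limit between delta cells with much and with little Ppy. Delta cells with Ppy at 1% or more (200 CDS, 207 saline) were set against those under 0.2% (69 CDS, 124 saline), a split chosen after seeing the data. Of 3737 genes, 5 (0.134%) were at 1.5 times or more and 12 (0.321%) at 1/1.5 or less in both libraries. Among the higher genes were Cela1, 1110059E24Rik, Usp4 and Rbfox3. Marker RNA of other cells moved with the split: immune markers summed to 171 CPM in high-Ppy and 88.4 CPM in low-Ppy CDS cells and to 105 and 95.6 CPM in saline cells, endothelial markers to 72.2 and 27 CPM in CDS and 19.0 and 60.8 CPM in saline cells, and acinar markers to 559 and 515 CPM in CDS and 541 and 260 CPM in saline cells. Of the acinar sums, Cela1 alone made up 120 CPM in high-Ppy and 66.3 CPM in low-Ppy CDS cells, and 224 and 79.4 CPM in saline cells. The part of this marker RNA in the ratios was not tested. Of the 3 sums the endothelial one went opposite ways in the libraries. Among the lower genes, Peg10, an imprinted gene, had 22.97 CPM in high-Ppy and 70.0 CPM in low-Ppy CDS cells, and 15.7 and 53.5 CPM in saline cells. Pdyn, the precursor of dynorphin peptides, had 78.7 and 137 CPM in CDS cells and 42.9 and 94.0 CPM in saline cells, again lower with Ppy. Gm32647, Frmd5, Sntg2, Tmem163, Pappa2, Vav3, Fabp5 and P2ry1 also had ratios under 0.63 in both libraries. Pyy, the peptide YY gene, was at 1.34 and 1.21 times in high-Ppy cells, and Hhex at 0.719 (0.584 to 0.891) and 0.865 (0.707 to 1.06).

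Delta cells with much and with little Sst RNA differed in a limited set of genes. Each library's delta cells were split by Sst share into top and bottom tertiles (122 and 122 CDS cells, 160 and 159 saline cells), and of 3726 genes, 16 (0.429%) were at 1.5 times or more and 40 (1.07%) at 1/1.5 or less in both libraries. Higher with Sst were Gm32647, Cela1, Cntnap5b, Kcnn2, Tmed6, Pappa2, Fkbp11, Spock3, Smim6 and Frmpd4. Fkbp11, an isomerase of the endoplasmic reticulum, had 216 CPM in the top and 124 CPM in the bottom tertile of CDS cells, and 165 and 98.3 CPM in saline cells. Kcnn2, a calcium-activated potassium channel, had 56.7 and 30.3 CPM in CDS cells and 81.5 and 47.2 CPM in saline cells. The islet amyloid polypeptide gene Iapp went with Sst too, at 1.54 times in CDS and 1.52 times in saline cells.

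**Figure D3:**
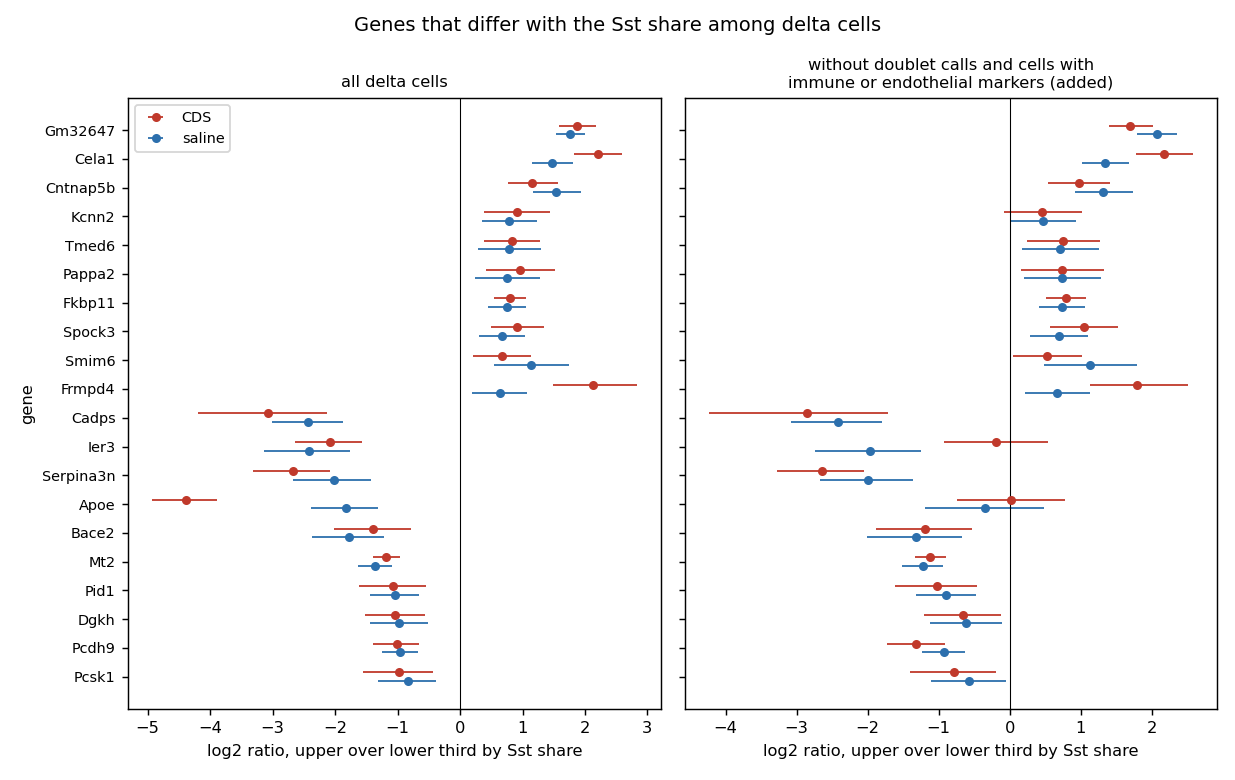
Points give the log2 ratio of non-hormone CPM in the top over the bottom tertile of delta cells by Sst share, red for CDS and blue for saline, with exact 95% counting intervals as bars; the right panel leaves out doublet calls and cells with immune or endothelial markers. The 10 upper genes lie right of 0 and the 10 lower genes left of it in all delta cells, while Apoe in both libraries and Ier3 in CDS cells lie near 0 in the right panel.

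Lower with Sst were Cadps, Ier3, Serpina3n, Apoe, Bace2, Mt2, Pid1, Dgkh, Pcdh9 and Pcsk1. Cadps had 6.51 CPM in the top and 55.1 CPM in the bottom tertile of CDS cells, and 22.1 and 119 CPM in saline cells. The metallothionein gene Mt2 had 166 and 376 CPM in CDS cells and 106 and 272 CPM in saline cells. Pcsk1 was at 0.507 (0.341 to 0.743) and 0.559 (0.404 to 0.768), while Pcsk2, the other main convertase, was at 1.04 and 0.976. Pcsk1 was thus lower in the cells with more Sst while Pcsk2 was at nearly the same level.

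Immune and endothelial marker RNA was more abundant in the bottom tertile, as was that of 5 beta cell markers. In saline cells stromal marker RNA was too. Acinar marker RNA was more abundant in the top, with much of the difference in Cela1. The 11 immune markers summed to 72.3 CPM in the top and 325 CPM in the bottom tertile of CDS cells and to 103 and 136 CPM in saline cells, the 6 endothelial markers to 23.5 and 147 CPM in CDS and 20.0 and 101 CPM in saline cells, and the 6 stromal markers to 0.651 and 1.82 CPM in CDS and 1.38 and 68.9 CPM in saline cells. The 8 acinar markers, none of them at 0, summed to 659 CPM in the top and 451 CPM in the bottom tertile of CDS cells and to 389 and 247 CPM in saline cells. Of the acinar sums, Cela1 alone made up 201 CPM in the top and 43.6 CPM in the bottom tertile of CDS cells. In saline cells it made up 199 and 71.5 CPM. Beta cell markers other than insulin and Iapp summed to 25.4 CPM in the top and 53.9 CPM in the bottom CDS tertile. In saline cells they summed to 49.7 and 124 CPM. The 5 delta cell markers other than Sst summed to 7527 and 5268 CPM in CDS and 7055 and 3442 CPM in saline cells. Alpha cell markers other than Gcg went opposite ways, at 470 and 445 CPM in CDS and 359 and 513 CPM in saline cells. The part of all this marker RNA in the ratios by Sst share was not tested. In the bottom tertile 3 of 11 immune markers were at 0 in CDS cells (Cd3e, Cd3d and Trac) and 1 in saline cells (Ms4a1). The stromal sums were 1 UMI in the top and 3 UMIs in the bottom tertile of CDS cells, too few to compare. In saline cells they were 2 and 108 UMIs. Without doublet calls and cells with 3 or more UMIs of immune or of endothelial markers, which left 330 CDS and 432 saline delta cells and was chosen after seeing the data, 11 genes were higher and 32 lower, among them 10 of the 16 and 24 of the 40. Apoe, a lipid carrier of macrophages, was then at 1.02 (0.599 to 1.72) in CDS and 0.787 (0.436 to 1.40) in saline cells, against 0.0480 and 0.282 in all delta cells. Ier3 was then at 0.878 in CDS and 0.256 in saline cells, and Kcnn2 at 1.38 in each. Pcsk1 was at 0.579 (0.377 to 0.877) in CDS and 0.671 (0.466 to 0.961) in saline cells, and so no longer at 1/1.5 or less in both. Cadps (0.138 and 0.188), Serpina3n (0.161 and 0.252) and Mt2 (0.461 and 0.429) stayed low. Cells with RNA of the beta cell markers were not left out, and the part of that RNA in these ratios was not tested.

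Between CDS and saline, most genes that mark delta cells had similar levels under TMM scaling. On the TMM scale Sst had 64345 CPM in CDS and 63612 CPM in saline delta cells, a ratio of 1.01, though its log2 ratio was -0.12 with plain CPM and -0.51 after subtraction of the running median over gene length. Hhex had 118 and 111 CPM (ratio 1.07, 0.949 to 1.20), Ghsr 25.7 and 26.6 CPM (0.968, 0.757 to 1.24) and Ptprz1 295 and 320 CPM (0.922, 0.859 to 0.989). Rbp4 stood out among them with 5424 CPM in CDS and 3967 CPM in saline delta cells, a ratio of 1.37 (1.34 to 1.39). Of the 20 delta cell genes 14 were measured, and 0 of these 14 lay past a ratio of 1.5 in either direction, with a median log2 ratio of -0.01. Of all genes 7.86% lay at 1.5 or more and 4.31% at 1/1.5 or less, so 0 of 14 does not set these genes apart. Adjusted for length, the log2 ratio was -0.36 for Ghsr, -0.25 for Hhex, 0.18 for Rbp4 and 0.23 for Ptprz1, so how near they lay to no difference depended on this choice.

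Over all genes, 738 of 9394 (7.86%) had a CDS over saline ratio of 1.5 or more and 405 (4.31%) of 1/1.5 or less in delta cells. This split depended on the scaling: with plain CPM, which moves the median log2 ratio of all genes to -0.11 where TMM gives 0.02, it was 395 higher and 883 lower. The 10 genes with the highest ratios under the naming rule were Hypk, Gm1673, 1810037I17Rik, Snhg3, Fmc1, Cox6c, Smim26, Lsm7, Hist3h2ba and Tmem258. Cox6c, a subunit of cytochrome c oxidase, had 845 CPM in CDS and 365 CPM in saline delta cells, a ratio of 2.31 (2.19 to 2.44). Hypk, a partner of the NatA acetyltransferase, had 69.8 and 26.8 CPM, a ratio of 2.61 (2.14 to 3.19), and Tmem258, a subunit of the oligosaccharyltransferase, had 333 and 147 CPM, a ratio of 2.26 (2.07 to 2.46). All 10 are short genes, between 0.614 and 12.4 kb.

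The 10 with the lowest ratios were Gm11867, Kcnh7, Timp1, Lrmda, Rcan2, Cdh4, Dpp10, Atg4a, Nav3 and Elmo1, most of them very long. Kcnh7, a potassium channel of the ERG family, had 18.1 CPM in CDS and 63.4 CPM in saline delta cells, a ratio of 0.286 (0.225 to 0.361). Gm11867, a long noncoding transcript, had 13.1 and 53.3 CPM, a ratio of 0.245 (0.185 to 0.320). Timp1, an inhibitor of matrix metalloproteinases, had 21.2 and 54.9 CPM, but 247 of its 289 saline UMIs were in a single cell, and without that cell its ratio was 2.66. Its low ratio is thus a property of 1 barcode, which the other 9 genes did not share: their ratios lay between 0.256 and 0.533 without the saline cell that held most.

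Beta and alpha cells shared the direction of the delta cell ratio for the 10 highest and 10 lowest genes, except Timp1 in alpha cells. Of the delta cell markers besides Lepr, Rbp4 and Ghsr shared it in both classes, Hhex in beta cells alone, Ptprz1 and Sst in neither. On the non-hormone scale the log2 ratio of Hypk was 1.24 in delta, 1.25 in beta and 1.005 in alpha cells, that of Cox6c 1.07, 1.27 and 1.20, and that of Gm11867 -2.17, -3.14 and -3.35. Kcnh7 had -1.95 in delta, -1.17 in beta and -1.97 in alpha cells. Rbp4 had 0.31 in delta, 1.09 in beta and 0.28 in alpha cells. Ptprz1 had -0.26 in delta, 0.03 in beta and 0.93 in alpha cells, Sst -0.13, 0.49 and 0.26, and Timp1 -1.51, -0.78 and 0.20. Ghsr had -0.19, -0.84 and -0.07, and Hhex -0.05, -0.20 and 1.35. In beta and alpha cells Ghsr, Hhex and Ptprz1 were at 4.99 CPM or less, so their direction there rests on few UMIs. Sst had 435 CPM in CDS and 309 CPM in saline beta cells, against 812 and 383 CPM in immune cells. The differences between classes were not tested.

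Gene length went with the ratio across the genome. Over the 9394 genes, Spearman's rho between gene length and the log2 ratio was -0.66; this is across genes of the same pair of libraries, so it describes these libraries. In the shortest of 5 equal groups (median length 5.07 kb) the median log2 ratio was 0.39, and in the longest (153 kb) it was -0.32. Subtracting the running median over length left 229 genes at 1.5 or more and 228 at 1/1.5 or less. Of the named genes, Cox6c then had a log2 ratio of 1.01 and Hypk 1.03, while Kcnh7 had -1.33 and Elmo1 -0.46.

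**Figure D4:**
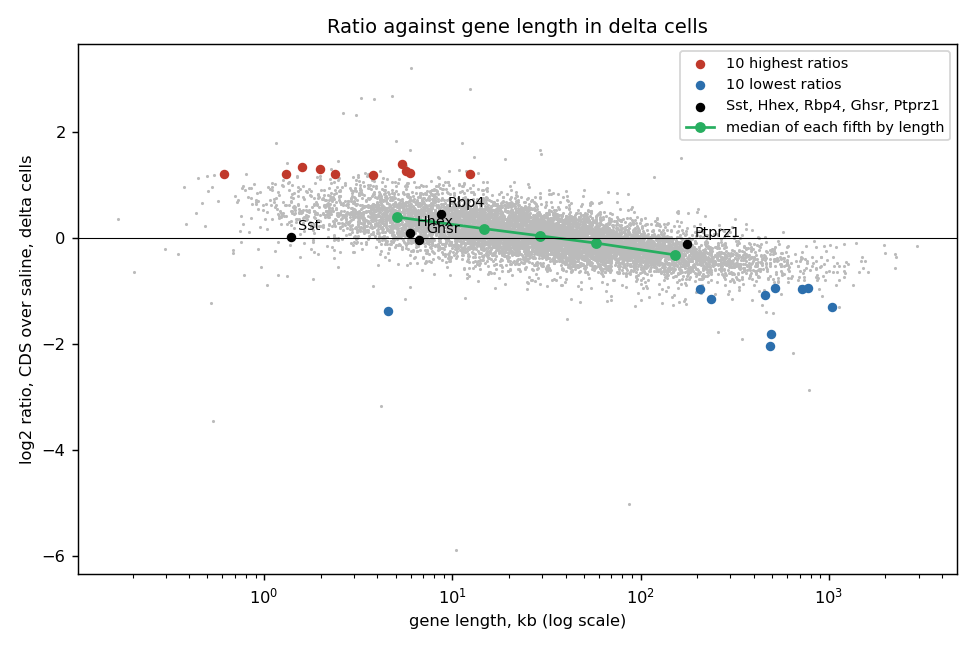
Each grey point is a gene, placed by its length in kb (log axis) and its TMM-scaled log2 ratio of CDS over saline in delta cells; red and blue points are the 10 highest and 10 lowest named genes, black points the delta markers. The green medians of 5 groups by length run from 0.39 in the shortest to -0.32 in the longest, and most of the 10 highest are short and most of the 10 lowest long.

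More than 50% of the nuclear energy genes lay past the limit, all of these in the same direction. Of all genes 7.86% lay at 1.5 or more and 4.31% at 1/1.5 or less. Of 66 nuclear genes of oxidative phosphorylation, 66 were measured, 35 lay at 1.5 or more and 0 at 1/1.5 or less. Their median log2 ratio was 0.67, against 0.02 over all genes. Cox7a2 had 440 CPM in CDS and 203 CPM in saline delta cells (ratio 2.17, 2.01 to 2.33), and Cox5b had 373 and 173 CPM (2.16, 2.00 to 2.34). After the adjustment for gene length the median was 0.35. The 13 mitochondrially encoded genes ran the other way, with 0 at 1.5 or more, 5 at 1/1.5 or less and a median of -0.36. mt-Nd2 had 1047 CPM in CDS and 1947 CPM in saline cells (0.538, 0.520 to 0.556), and the mitochondrial share of UMIs, which can also mark cell damage, was at a median of 1.12% in CDS and 1.73% in saline delta cells. Its part in these ratios was not tested.

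Glycolysis and stress lists had medians above that of all genes; their counts stand against all-gene shares of 7.86% higher and 4.31% lower. In glycolysis 6 of 16 measured genes were at 1.5 or more and 0 at 1/1.5 or less (median 0.44). Tpi1, triose phosphate isomerase, had 234 CPM in CDS and 124 CPM in saline delta cells (1.89, 1.71 to 2.08), and Ldha, lactate dehydrogenase A, had 87.7 and 54.3 CPM (1.61, 1.39 to 1.88). Antioxidant, heat shock and metallothionein genes had 5 of 27 higher and 0 lower (median 0.33), led by Mt1 with 1778 and 888 CPM (2.00, 1.93 to 2.07). Genes of folding in the endoplasmic reticulum had 5 of 34 higher and 0 lower (median 0.18), with Sec61b, a subunit of the translocon, at 980 and 511 CPM (1.92, 1.83 to 2.01). Interferon and antigen presentation genes had 5 of 24 higher and 2 lower (median 0.32), and immediate early genes 2 of 23 higher and 0 lower (median 0.34), with Ier2 at 484 and 282 CPM (1.72, 1.61 to 1.83), so that the share of immediate early genes past the limit was close to that of all genes. After length adjustment these medians were 0.29 for glycolysis, 0.07 for antioxidant genes, 0.02 for folding, -0.09 for interferon and -0.03 for immediate early genes, so that of this group glycolysis alone stayed above 0.1.

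Hormone processing genes had a median near that of all genes, with exceptions. Of 22 measured, 3 were at 1.5 or more and 1 at 1/1.5 or less, where 7.86% and 4.31% of all genes were. The median was 0.09, against 0.02 over all genes. Pyy had 58400 CPM in CDS and 38099 CPM in saline delta cells (1.53, 1.52 to 1.54), and Resp18, a granule protein, had 1999 and 1241 CPM (1.61, 1.56 to 1.66). Ptprn2, a granule membrane protein, had 1675 and 2542 CPM (0.659, 0.641 to 0.677), and its gene is 791 kb long. After length adjustment the log2 ratio was 0.08 for Pyy, 0.37 for Resp18 and -0.11 for Ptprn2, none of them past the limit. The list median was then 0.01. With plain CPM Pyy (0.48) and Resp18 (0.55) were also short of the limit, while Ptprn2 (-0.74) was past it.

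Signalling, channel and adhesion lists had medians below that of all genes, where 7.86% of genes were higher and 4.31% lower, and length adjustment brought these medians close to 0. Cyclic AMP signalling had 0 of 29 higher and 4 lower (median -0.25, adjusted 0.07). Pde7b, a phosphodiesterase that degrades cyclic AMP, had 57.9 CPM in CDS and 99.1 CPM in saline delta cells (0.584, 0.505 to 0.675). Adrenergic receptors and Gi signalling had 1 of 24 higher and 2 lower (median -0.03, adjusted -0.02), with Gnb2, a G protein beta subunit, at 200 and 129 CPM (1.54, 1.40 to 1.70) and Rgs7, a regulator of G protein signalling, at 369 and 554 CPM (0.666, 0.628 to 0.706). Membrane excitability had 2 of 36 higher and 3 lower (median -0.20, adjusted -0.03), with the L-type calcium channel Cacna1c at 282 and 505 CPM (0.559, 0.524 to 0.596). In neuronal-type adhesion 0 of 17 was higher and 4 were lower (median -0.46, adjusted 0.00), with Dscam, an adhesion molecule, at 308 and 496 CPM (0.621, 0.583 to 0.662). These lists hold many long genes, and none of their medians lay more than 0.1 from 0 once length was taken out.

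In the remaining lists, transcription factors and receptors had more of their members at 1/1.5 or less than the 4.31% of all genes, and acinar genes more at 1.5 or more than the 7.86% of all genes. Islet transcription factors had 1 of 30 higher and 4 lower (median -0.19, adjusted -0.15), with Glis3 at 213 CPM in CDS and 350 CPM in saline delta cells (0.607, 0.563 to 0.655). Receptors had 0 of 27 higher and 3 lower (median -0.18, adjusted -0.08), with Grik2, a kainate receptor subunit, at 32.7 and 54.7 CPM (0.599, 0.492 to 0.727). Exocytosis genes had 0 of 35 higher and 1 lower (median -0.13, adjusted -0.01), and nuclear-retained RNAs 0 of 7 higher and 1 lower (median -0.29, adjusted -0.33), with Neat1 at 200 and 323 CPM (0.619, 0.573 to 0.670). The 16 measured acinar genes had 12 higher and 1 lower (median 0.96). This median depended on the cells taken, and with Sst at 1% of UMIs or more it was -0.10. Try4, a trypsin gene, had 59.0 and 9.49 CPM (6.22, 4.60 to 8.57). Endothelial cells, which make no trypsin, held 73.2 CPM of Try4 in the CDS and 11.1 CPM in the saline library on the non-hormone scale, against 62.3 and 11.0 CPM in delta cells.

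**Figure D5:**
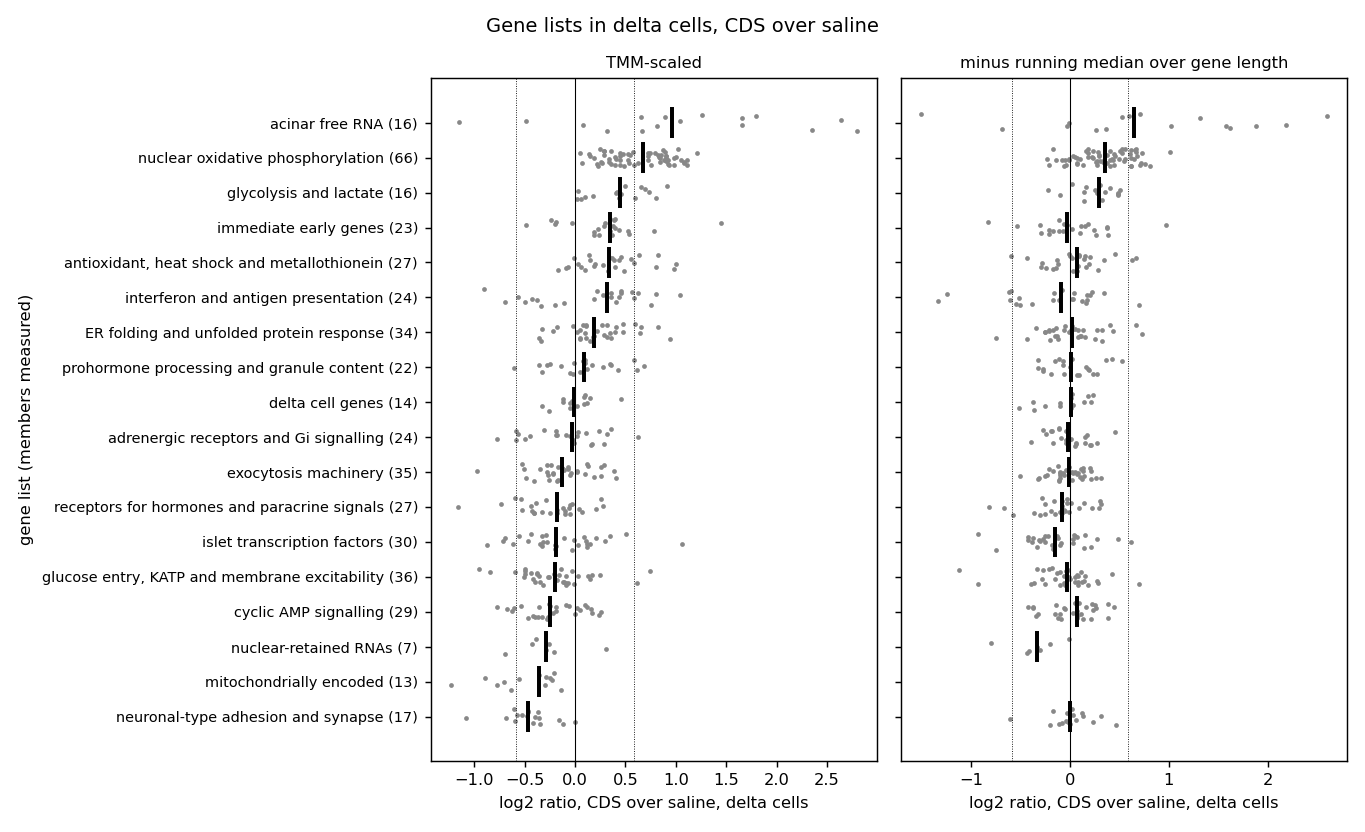
Grey points are the measured members of each gene list, placed by their log2 ratio of CDS over saline in delta cells, with TMM scaling on the left and after subtraction of the running median over gene length on the right; black bars are medians and dotted lines mark ratios of 1.5 and 1/1.5. Nuclear oxidative phosphorylation genes have a median of 0.67 on the left and 0.35 on the right, while neuronal-type adhesion genes have -0.46 and 0.00; mitochondrially encoded genes have no adjusted value.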

How the data were processed

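Islet cells of DIO mice given CDS or saline were profiled as 1 droplet single-cell RNA library per group. The authors deposited raw UMI counts per gene and barcode made with Cell Ranger 7.1.0 on mm10, per the file headers; the submitters' processing notes also name Seurat 4 and edgeR, with no role stated. The extract protocol names both v3.1 and v2 chemistry. Gene positions and lengths come from GENCODE vM21 (GRCm38), which matched 32235 of 32285 gene IDs.

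The members and gene lists were chosen with earlier results of these data known. Counts of the cells of each class were summed within a library. Delta cells of CDS and saline were compared as CPM with edgeR 4.0.16 TMM factors, for genes with at least 100 UMIs over both libraries; classes and splits were compared as CPM over UMIs other than the 5 hormone genes. Ratios have exact conditional Poisson intervals and shares have Clopper-Pearson intervals, both at 95% and for counting error only. Shares of cells with a UMI were computed after thinning to 5000 UMIs; 328 CDS and 449 saline delta cells had as many. Between libraries the genes named were the markers, Adra2a and the 10 highest and 10 lowest ratios at 50 CPM or more in either library, leaving out mitochondrial, ribosomal protein and Y-linked genes, Xist and Tsix, and those under 25% of their level in another class in both libraries, plus up to 3 members per list with the largest ratio. Between classes they were the 20 highest and 10 lowest, and within delta cells the 10 highest and 10 lowest, each by the library nearer to no difference. Other genes were named for their role with values seen, and some genes are not reported here. Doublets were called with Scrublet in Scanpy 1.11.5, 256 CDS and 614 saline barcodes, and kept except in an alternative. The length adjustment subtracts a running median over 501 genes. The ratio script was tested on simulated data. Alternatives varied scaling, filters, class limits, thinning, doublets and gene length; with 1 library per group none was left out.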

Additional observations from a re-analysis of the deposited data

Results flagged for a closer look

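Try5, a trypsin gene of acinar cells, had a log2 ratio of CDS over saline of -1.30 in delta cells and of 1.53 in PP cells on the non-hormone scale, the opposite direction in these 2 cell types. The difference was not tested, since each group is 1 library. The UMIs making up the larger part of the saline delta cell count lay in 3 cells, and trypsin genes have near-identical copies, so that counting among them is uncertain.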

How the results depend on the processing

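With Sst at 3% or more, delta cells were 5.89% of CDS and 5.97% of saline hormone cells and 4.82% and 3.55% of all barcodes past the filter; under the stricter barcode filter they were 4.75% of saline barcodes. The other 23 shares moved by less than their intervals. Counts of genes at a CDS over saline ratio of 1.5 or more and of 1/1.5 or less were 395 and 883 with plain CPM, 438 and 793 without hormone, acinar and mitochondrial genes, 450 and 1138 as a mean over cells, 229 and 228 after length adjustment, 2399 and 2380 with only 1 UMI required in each library, and 395 and 150 with 400 UMIs required. The median of oxidative phosphorylation genes was 0.54 with plain CPM, 0.56 without hormone, acinar and mitochondrial genes, 0.54 as a mean over cells and 0.35 after length adjustment, and that of neuronal-type adhesion genes was -0.60 with plain CPM and -0.63 as a mean over cells. The acinar median was 0.53 after thinning, 0.075 with 400 UMIs required and -0.10 with Sst at 1% or more, where Prss2 had a log2 ratio of -1.15; the cause was not tested. Of 317 values of the 20 named genes under these alternatives, 313 kept direction and side, and 4 (Dpp10, Atg4a, Nav3 and Elmo1, after length adjustment) no longer passed.

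Of the genes low in delta cells, 29 passed with plain CPM, and with a minimum of 20 CPM 116 were high and 104 low; against PP cells with little Sst 95 were high. Without thinning and at 2000 UMIs, Hhex was seen in 66.4% and 19.55% of CDS and 57.5% and 17.97% of saline delta cells, Ghsr in 29.0% and 4.53% of CDS and 23.4% and 6.49% of saline cells, and Ptprz1 in 82.0% and 40.8% of CDS and 81.8% and 43.5% of saline cells. Rbp4 was seen in 100% of CDS cells without thinning and 98.1% of saline cells at 2000 UMIs. With the top set against the bottom 25% of cells by Sst share, 76 genes were lower. Apoe, without doublets and cells with immune or endothelial markers, had a log2 ratio of 0.022 in CDS cells.

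No paired analysis was possible because each group is 1 library. No replicate was left out, intervals cover counting error only, and depth limits genes such as Adra2a and Lepr. The removal of cells with other markers and the PP cells with little Sst were chosen after seeing the data.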

Other observations

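Cela1, an elastase gene of acinar cells, was higher in delta cells than in the other hormone cells. It had 100 CPM in CDS and 156 CPM in saline delta cells on the non-hormone scale, against 47.1 and 53.9 CPM in PP cells, 48.9 and 37.5 CPM in alpha cells and 38.2 and 23.4 CPM in beta cells. Cpa1, a carboxypeptidase gene that acinar cells make along with it, ran the other way, with 32.9 and 29.2 CPM in delta cells, against 96.9 and 99.4 CPM in alpha cells. Delta cells were thus above alpha cells for Cela1 and below them for Cpa1; the source of this RNA was not tested.

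Cela1 also varied among delta cells. It was 4.60 times as high in the top as in the bottom tertile by Sst share of CDS cells and 2.78 times in saline cells, and 1.81 and 2.82 times as high in cells with Ppy at 1% or more as in those under 0.2%. Gm32647 was 3.66 and 3.40 times as high in the top tertile by Sst, but 0.317 and 0.384 times in the cells with Ppy. These genes were singled out after their values were seen.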
